A study of Mus musculus with 6 samples.

Results

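Kinesins are motor proteins that bind microtubules and use ATP to move along them or to change how they grow and shrink. One group works in dividing cells, where it builds the spindle, moves chromosomes and shapes the midzone at which the cell divides, and its transcripts are made mainly in cells that are passing through the cell cycle. Another group carries vesicles, lysosomes, mitochondria and RNA through the cytoplasm of dividing and resting cells alike. In macrophages the transport motors are known for moving lysosomes towards the cell edge, and alveolar macrophages are known to renew themselves by division in the airspace, so both groups have a place in this cell type.

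The kinesin genes were taken from the rows of the expression table by symbol. A symbol had to be Kif followed by a number and, where there is one, a letter, or Kifc followed by a number alone. This rule found 38 genes of the 15824 in the table and used no measured value. They were divided by known function into 12 mitotic kinesins, 15 transport kinesins, 6 kinesins of the cilium and 5 that act mainly on microtubule dynamics or do not belong to the other classes. RNA was sequenced after polyA selection in alveolar macrophages sorted from the lungs of mice aged 8 weeks, with 3 libraries from Men1 knockout mice (KO) and 3 from wild-type mice (WT). Men1 encodes menin, a scaffold of histone methyltransferase complexes, and KO was compared with WT to ask which genes depend on it. The sources used here do not give how the knockout was made, in which cells Men1 was deleted, the strain or the sex. Whether each library stands for its own mouse is also not stated. The p-values therefore rest on the spread among these 6 libraries, part or all of which may be technical.

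Total counts were 19955232 to 20151985 per library. Men1 had 150, 149 and 165 counts in KO libraries and 639, 594 and 603 counts in WT libraries, so every KO library carried the lower level its label gives. Of the markers of the sorted cell, general macrophage genes summed to 32940 to 33700 CPM (counts scaled to a common library size) in KO and 28100 to 29250 CPM in WT, and 6 of 9 rose while none fell. On the TPM scale their sum was lower in KO, at 39500 ± 605 TPM against 41540 ± 1118 TPM in WT (SD, n = 3 each). The 12 alveolar macrophage markers in the table summed to 2740 to 2817 CPM in KO and 1791 to 1803 CPM in WT, and of 8 tested, 4 fell, 3 rose and 1 did not pass. Among them Siglecf, a defining surface marker, was low in both groups, at 1.34 ± 0.154 CPM in KO and 2.06 ± 0.381 CPM in WT (SD, n = 3 each), while Ear1, Ear2, Plet1 and Fabp1 were too low to test. Markers of fibroblasts differed between the groups, with a summed level of 16.3 to 18.5 CPM in KO against 84.8 to 87.5 CPM in WT, and all 10 tested of the 12 listed fell, while Thy1 had at most 3 counts in any library. Lymphocyte markers summed to 19.8 to 21.5 CPM in KO and 8.83 to 9.62 CPM in WT, with 3 of 3 tested higher. Neutrophil markers moved in both directions, with 4 of 6 tested higher and 2 lower, and their summed level was lower in KO on the CPM scale (685.3 to 706.0 CPM in KO, 851.3 to 869.6 CPM in WT) but higher in KO on the TPM scale (1539 ± 27.9 TPM in KO, 1246 ± 18.9 TPM in WT, SD, n = 3 each). Beside these marker counts, 34.9% of all genes tested were called lower and 34.4% higher. The 4 Y-linked genes in the table summed to at most 0.102 CPM in any KO library and to 161.9 to 169.0 CPM in WT. Xist, listed with them, is not in the table, so the sex of the KO libraries could not be checked by it. Since the groups differ in Y-linked transcripts, a difference between the sexes and the effect of the genotype cannot be told apart in any result here. In bulk RNA, fewer dividing cells and less RNA per dividing cell cannot be told apart either.

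Transcripts of the 12 kinesins classed as mitotic all fell in KO macrophages, while those of the transport kinesins moved little and in both directions. All 12 mitotic kinesins were lower in KO (edgeR's quasi-likelihood test, adjusted p under 0.05 over 11817 genes), by 1.68-fold to 2.99-fold, with a median log2 fold change of -1.17. The classes were set with earlier results of these data known. With the kinetochore kinesin Cenpe and with Kif2a added to the mitotic class, 14 were called lower. Kif2a, which acts in resting and dividing cells, had a log2 fold change of only -0.11. Of the 15 transport kinesins, 13 were tested, of which 4 fell, 5 rose and 4 did not pass, with a median of 0.03. Among all genes tested, 69.2% were called, 34.9% lower and 34.4% higher, around a median log2 fold change of 0.001, so a call by itself is common in these libraries. KO and WT libraries did not overlap in all 12 mitotic kinesins, but also in 10 of the 13 tested transport kinesins. The same held for 3 of 4 tested kinesins of the cilium and 4 of 4 of the remaining class. The share of genes without overlap over all genes was not taken, so separation does not mark the mitotic class. On the log2(TPM + 1) scale the balance of calls was 5781 lower and 2463 higher, against 4119 lower and 4060 higher in the count-based fit. A fall of at least 2-fold was called in 4.94% of all genes tested and in 9 of the 12 mitotic kinesins, but in no transport kinesin. The number of transport kinesins called higher was 3 instead of 5 with DESeq2 and on the FPKM and TPM scales. A rise of at least 2-fold was called in 3.26% of all genes tested and in no kinesin.

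**Figure D1:**
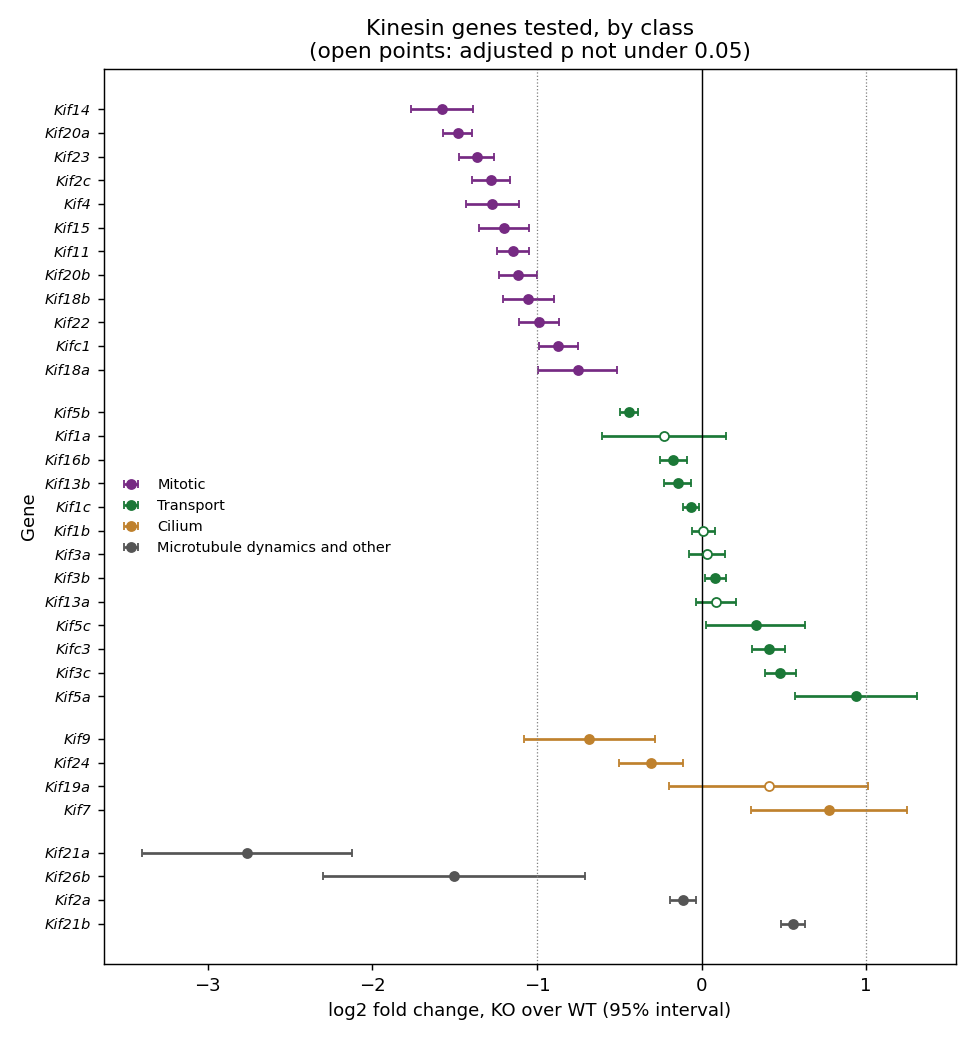
Log2 fold change of each of the 33 tested kinesin genes, KO over WT, with its 95% interval from the edgeR fit, by class. Filled points passed an adjusted p of 0.05 and open points did not, and dotted lines mark a 2-fold change. The 12 mitotic kinesins lie between -1.58 and -0.75, and the 13 transport kinesins between -0.44 and 0.94.

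The mitotic class begins with the motors of the spindle itself. Kif11 (gene 16551, chr19:37376382-37421863 in GRCm38.p6) encodes the motor that pushes the spindle poles apart. It had 22.8, 22.9 and 21.6 CPM in KO libraries, against 51.1, 49.6 and 48.3 CPM in WT libraries. No KO library came near a WT library, and the log2 fold change was -1.15 (SE 0.0472, adjusted p = 6.8e-22, edgeR). Kif15, a motor that can take over pole separation from Kif11, had 8.07, 8.17 and 8.30 CPM in KO and 19.04, 17.7 and 19.7 CPM in WT. Its log2 fold change of -1.202 lay close to that of Kif11 (SE 0.0752, adjusted p = 1.79e-16, edgeR), and the groups did not overlap.

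Kifc1 moves towards the minus end of microtubules and focuses the spindle poles. It had 14.9, 14.6 and 14.8 CPM in KO and 27.1, 26.5 and 27.5 CPM in WT, and its log2 fold change of -0.87 was among the smaller ones of the class (SE 0.0582, adjusted p = 1.13e-15, edgeR). Mice carry a closely related copy, Kifc5b, whose symbol lies outside the rule, so it is not counted in the mitotic class. It was chosen here after its values were seen, and reads may have been divided between both genes by the authors' counting. Kifc5b averaged 3.87 ± 0.488 CPM in KO and 4.98 ± 0.845 CPM in WT (SD, n = 3 each), with overlapping libraries although it was called lower (log2 fold change -0.36, adjusted p = 0.0178, edgeR). How reads were divided between Kifc1 and its copy is not known, so the value of Kifc1 is uncertain by an amount that cannot be given here.

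The motors that act on chromosomes and on the microtubules attached to them fell as well. Kif2c takes microtubules apart at the centromere and so corrects wrong attachments. It had 13.2, 13.3 and 14.5 CPM in KO libraries, against 33.3, 33.1 and 32.9 CPM in WT libraries, and the lowest WT library stood more than 2-fold above the highest KO library (log2 fold change -1.28, SE 0.0576, adjusted p = 1.07e-20, edgeR). Kif18a and Kif18b dampen or shorten microtubules at their plus ends. Kif18a had 3.76, 4.14 and 3.97 CPM in KO and 7.16, 5.90 and 6.92 CPM in WT. Its fall was the smallest of the 12, at 0.75 on the log2 scale (SE 0.118, adjusted p = 8.04e-07, edgeR), and still no KO library reached the WT range. Kif18b averaged 8.44 ± 0.671 CPM in KO and 17.5 ± 0.313 CPM in WT (SD, n = 3 each).

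Kif22 and Kif4 bind chromosome arms and push them away from the poles, and Kif4 also works at the spindle midzone. Kif22 averaged 13.7 ± 0.254 CPM in KO and 27.1 ± 0.313 CPM in WT (SD, n = 3 each), a difference of -0.99 on the log2 scale (SE 0.0592, adjusted p = 5.02e-17, edgeR). Kif4 had 7.61, 10.2 and 9.22 CPM in KO, against 23.3, 20.3 and 21.5 CPM in WT, and the KO libraries spread more for this gene than for most of the class. Kif4 lies on the X chromosome, and the groups differ in their Y-linked transcripts. Without it, the remaining 11 mitotic kinesins were all lower, with a median log2 fold change of -1.15.

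The motors of the midzone and of cytokinesis, the last step of division, included the 3 largest falls of the class. Kif14 (gene 381293, chr1:136466301-136555938) recruits citron kinase to the midbody. It had 4.416, 4.598 and 4.738 CPM in KO libraries, against 14.3, 13.5 and 13.3 CPM in WT libraries. This was the largest fall of the class, 2.99-fold (log2 fold change -1.58, SE 0.0923, adjusted p = 2.52e-17, edgeR). Kif20a (gene 19348, chr18:34624624-34633277), which carries the chromosomal passenger complex to the midzone, had the highest read counts of the class, with 23.8, 24.9 and 24.2 CPM in KO and 69.6, 66.9 and 66.8 CPM in WT. Its log2 fold change was -1.48 (SE 0.0432, adjusted p = 1.66e-26, edgeR), and the groups were far apart. Kif23 is the motor subunit of centralspindlin, the complex that sets the position of the cleavage furrow. It had 19.1, 16.2 and 18.3 CPM in KO and 46.1, 47.6 and 44.7 CPM in WT, a log2 fold change of -1.37 without overlap (SE 0.0532, adjusted p = 1.24e-22, edgeR). Kif20b, which also acts in the completion of cytokinesis, averaged 15.1 ± 0.669 CPM in KO and 32.7 ± 0.692 CPM in WT (SD, n = 3 each).

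**Figure D2:**
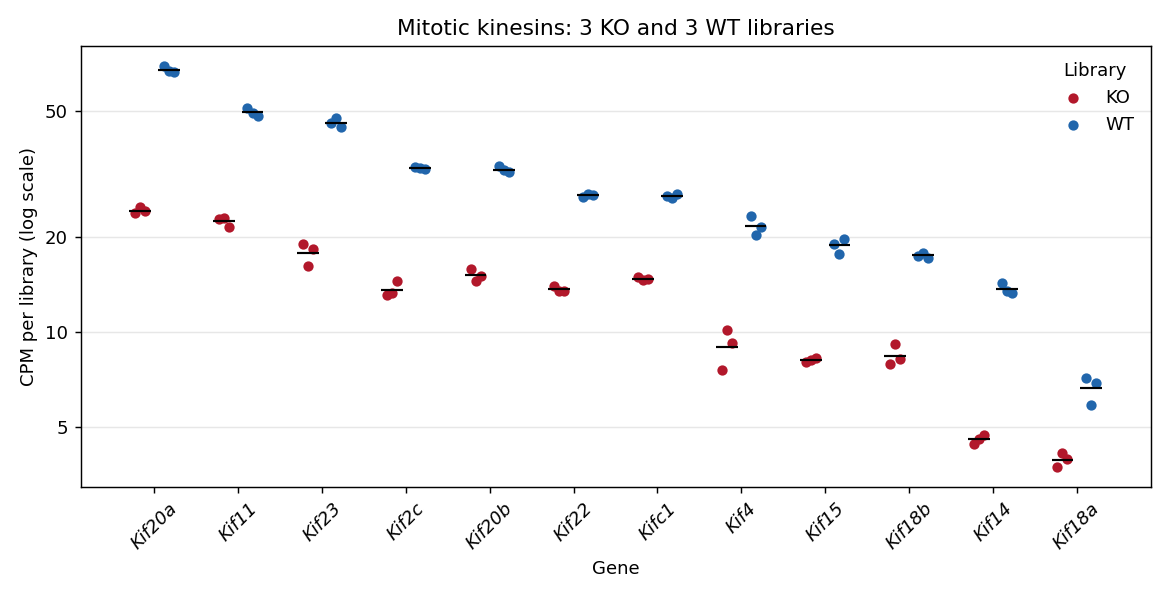
CPM of the 12 mitotic kinesins in each library, on a log scale, with KO libraries in red left of WT libraries in blue and a bar at each group's mean of 3 libraries. For every gene the 3 KO points lie below the 3 WT points, with Kif20a at 24.3 CPM in KO and 67.8 CPM in WT at the upper end and Kif18a at 3.96 CPM in KO and 6.66 CPM in WT at the lower end. The groups also do not overlap in 10 of the 13 tested transport kinesins.

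The estimated falls differed in size. In 31 of the 66 pairs of mitotic kinesins, the 95% intervals of the log2 fold changes did not overlap, with Kif14 and Kif20a at one end and Kifc1 and Kif18a at the other. The share of such pairs over all genes was not taken. The intervals cover only the spread between these libraries, part or all of which may be technical. Several of these genes share sequence with a neighbour, and since no source used here states whether strand was used in counting, their reads cannot be assigned with certainty. Kif20a overlaps Cdc23 over 4930 bases, and Cdc23, named here after its values were seen, averaged 31.6 ± 0.448 CPM in KO and 34.9 ± 1.35 CPM in WT (SD, n = 3 each), a smaller difference than that of Kif20a. Kif18a overlaps Mettl15 over 593 bases, and Mettl15, likewise chosen afterwards, averaged 3.50 ± 0.229 CPM in KO and 4.02 ± 0.257 CPM in WT (SD, n = 3 each).

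The proteins with which mitotic kinesins work were described by a list of 24 genes. Of these, 20 fell (83.3%, beside 34.9% of all genes tested), 2 rose and 2 did not pass, with a median log2 fold change of -0.996, and 12 fell at least 2-fold. Racgap1, the other subunit of centralspindlin, averaged 32.9 ± 0.892 CPM in KO and 75.7 ± 2.37 CPM in WT (SD, n = 3 each), and its log2 fold change of -1.202 (adjusted p = 1.6e-24, edgeR) stands beside the -1.37 of Kif23. Prc1, the bundling protein that brings Kif4 to the midzone, had a log2 fold change of -1.36 (adjusted p = 5.74e-24, edgeR). Tpx2, which binds Kif11 and Kif15 on the spindle, had one of -1.31 (adjusted p = 8.08e-26, edgeR). Cenpe, a kinetochore kinesin whose symbol lies outside the Kif pattern, averaged 16.5 ± 0.438 CPM in KO and 41.9 ± 0.958 CPM in WT (SD, n = 3 each), a log2 fold change of -1.35 (adjusted p = 7.94e-23, edgeR).

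Not every partner fell. The 2 that rose were Numa1, a spindle pole and nuclear protein (log2 fold change 0.18), and Mapre3, a microtubule end-binding protein (0.25), both named after their values were seen. The 2 that did not pass, also named afterwards, were Kat2b (log2 fold change 0.015) and Mad1l1 (0.10). Mki67, the proliferation marker, averaged 89.4 ± 5.31 CPM in KO and 239.0 ± 2.63 CPM in WT (SD, n = 3 each), a log2 fold change of -1.42 (adjusted p = 9.82e-31, edgeR), which lay within the range of the mitotic kinesins. Of the 7 proliferation reference genes, 6 fell (85.7%, beside 34.9% of all genes tested). These 6 include Men1, whose fall the knockout gives, and Cdkn2c, an inhibitor of the cell cycle named after its value was seen. The share is therefore no measure of a fall of proliferation genes. The gene that rose was Cdkn1b, also an inhibitor of the cell cycle named after its value was seen (log2 fold change 0.71).

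Many mitotic genes carry in their promoters a cell cycle homology region (CHR) and, upstream of it, CCAAT boxes, the elements through which the DREAM and MMB-FOXM1 complexes and the factor NF-Y act. RefSeq promoter windows of build GRCm38.p6, from 250 bases before to 50 bases after the start, were at hand for 30 of the 38 kinesins, among them 11 of the 12 mitotic and 10 of the 15 transport kinesins. The windows were searched on both strands for CHR (TTTGAA or TTCGAA), for CCAAT, and for E2F sites (TTTCGCGC, TTTGGCGC, TTTCCCGC or TTTGCCGC). In the kinesin windows no match overlapped another. The following stretches run from 60 bases before to 30 bases after the start, with CHR and CCAAT letters of either strand in capitals. The first 5 are mitotic kinesins with a CHR close to the start, Kif18a is the mitotic kinesin with neither element, and Kif1c is the most abundant transport kinesin.
Kif11, chr19:37376322-37376411, plus strand: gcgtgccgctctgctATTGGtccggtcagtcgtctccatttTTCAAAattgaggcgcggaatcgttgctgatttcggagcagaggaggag
Kif23, chr9:61946770-61946859, minus strand: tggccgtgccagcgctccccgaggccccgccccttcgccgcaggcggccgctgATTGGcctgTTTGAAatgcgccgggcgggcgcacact
Kif18b, chr11:102925095-102925184, minus strand: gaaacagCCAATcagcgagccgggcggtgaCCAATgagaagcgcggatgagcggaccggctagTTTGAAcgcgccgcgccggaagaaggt
Kif22, chr7:127042391-127042480, minus strand: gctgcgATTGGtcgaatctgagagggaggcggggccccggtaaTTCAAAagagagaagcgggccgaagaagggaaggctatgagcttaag
Kif20b, chr19:34922298-34922387, plus strand: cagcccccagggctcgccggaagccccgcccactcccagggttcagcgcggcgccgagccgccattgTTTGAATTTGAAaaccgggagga
Kif18a, chr2:109280678-109280767, plus strand: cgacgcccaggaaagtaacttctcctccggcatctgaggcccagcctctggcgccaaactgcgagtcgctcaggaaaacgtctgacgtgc
Kif1c, chr11:70700488-70700577, plus strand: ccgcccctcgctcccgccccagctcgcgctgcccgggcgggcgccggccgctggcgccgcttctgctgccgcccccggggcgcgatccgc

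A CHR stood in the windows of 10 of the 11 mitotic kinesins (90.9%), against 1 of the 10 transport kinesins, 16.7% of tested genes with a window and 21.7% of all genes with one. It also stood in 2 of 5 kinesins of the cilium and 1 of 4 of the remaining class with a window. With the first base of the CHR within 30 bases of the start, a distance chosen after the positions were seen, the numbers were 8 of 11 mitotic kinesins, 0 of 10 transport kinesins and 2.98% of tested genes. Kif24, 1 of 5 kinesins of the cilium, and Kif26b, 1 of 4 of the remaining class, also held a CHR at that distance. Of the listed mitotic partners with a window, 7 of 21 genes held such a CHR (33.3%), as did 9.66% of tested genes called at least 2-fold lower. A CHR together with a CCAAT box stood in 7 of 11 mitotic kinesins (63.6%) and in 8.35% of tested genes. It stood in 2 of 5 kinesins of the cilium, 1 of 4 of the remaining class and no transport kinesin. The E2F letters were found in Kif15 and Kif18a, and in 4.81% of tested genes. The window of Kif18a, the mitotic kinesin with the smallest fall, held neither a CHR nor a CCAAT box. That of Kif14, with the largest fall, held a CHR 228 bases before a start that lies inside the outer gene boundary. The window of Kifc1, with a log2 fold change of -0.87 also among the smaller falls, held 1 CHR and 3 CCAAT boxes. A relation between these letters and the size of the fall was not tested. A match is a description of letters and not a site that was shown to be bound.

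**Figure D3:**
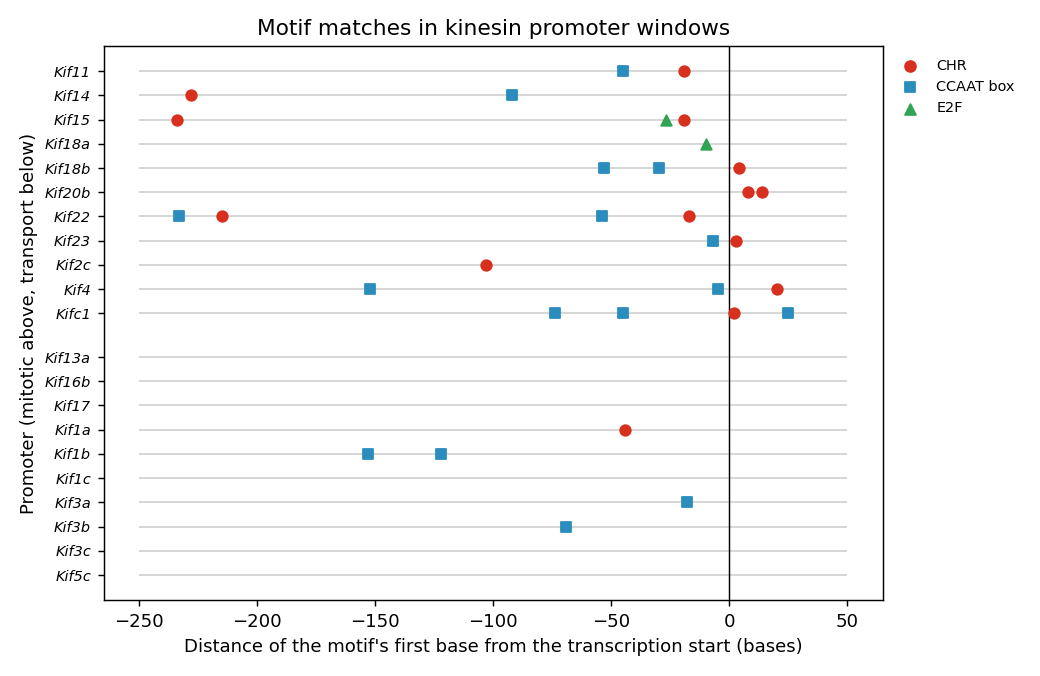
Positions of CHR (circles), CCAAT (squares) and E2F (triangles) letters in the promoter windows of 11 mitotic kinesins (upper rows) and 10 transport kinesins (lower rows), as distance of the first base from the start in bases, with 1 window per gene. In 8 mitotic kinesins a CHR lies within 30 bases of the start, and no transport kinesin has one there. Kinesins of the other classes are not drawn, and of these Kif24 and Kif26b have one there.

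The regulators known to act on such promoters moved in both directions, with 13 of 20 listed genes lower (65.0%, beside 34.9% of all genes), 4 higher (beside 34.4% of all genes) and 3 not passing. Foxm1, the activator of late cell cycle genes, averaged 16.2 ± 0.288 CPM in KO and 39.7 ± 0.965 CPM in WT (SD, n = 3 each), a log2 fold change of -1.29 (adjusted p = 4.27e-22, edgeR). Mybl2, the MYB subunit of the MMB complex, had one of -0.81 (adjusted p = 1.57e-12, edgeR), and E2f2 one of -1.08 (adjusted p = 1.16e-21, edgeR). Cdkn1a, the p53-induced inhibitor of cyclin-dependent kinases, was also lower, at 133.0 ± 2.10 CPM in KO and 216.2 ± 5.86 CPM in WT (SD, n = 3 each). The 4 that rose, named after their values were seen, were Rb1 (log2 fold change 0.79) and Rbl2 (0.215), which hold back cell cycle genes, E2f1 (0.41) and Trp53 (0.17).

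The transport kinesins made up the larger share of kinesin transcripts. On the TPM scale, which is per transcript length, the 2 most abundant kinesins were the same in both groups, Kif1c with 56.63 ± 1.251 TPM in KO and 63.5 ± 0.648 TPM in WT, and Kif5b with 36.7 ± 0.579 TPM in KO and 54.8 ± 2.41 TPM in WT (SD, n = 3 each). The order below them differed. Kif20a stood at rank 10 in KO and rank 3 in WT, Kif23 at rank 14 in KO and rank 6 in WT, and Kif11 at rank 17 in KO and rank 10 in WT. Kif3b took rank 3 in KO and rank 4 in WT.

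Summed over the class, mitotic kinesins reached 66.4, 66.6 and 66.7 TPM in KO libraries, against 169.5, 166.1 and 164.8 TPM in WT libraries, a level 2.51-fold higher in WT. Transport kinesins summed to 186.7, 188.2 and 183.7 TPM in KO libraries, against 216.0, 215.9 and 212.1 TPM in WT libraries. Both sums were lower in each KO library than in any WT library, and the mitotic share of all kinesin TPM was 23.1 ± 0.198% in KO and 39.8 ± 0.312% in WT (SD, n = 3 each). The transport share was 64.7 ± 0.332% in KO and 51.3 ± 0.105% in WT (SD, n = 3 each). The sums are weighted towards abundant genes, and the median of all tested genes lay at -0.12 on the log2(TPM + 1) scale, so a small fall on this scale is common to the libraries.

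**Figure D4:**
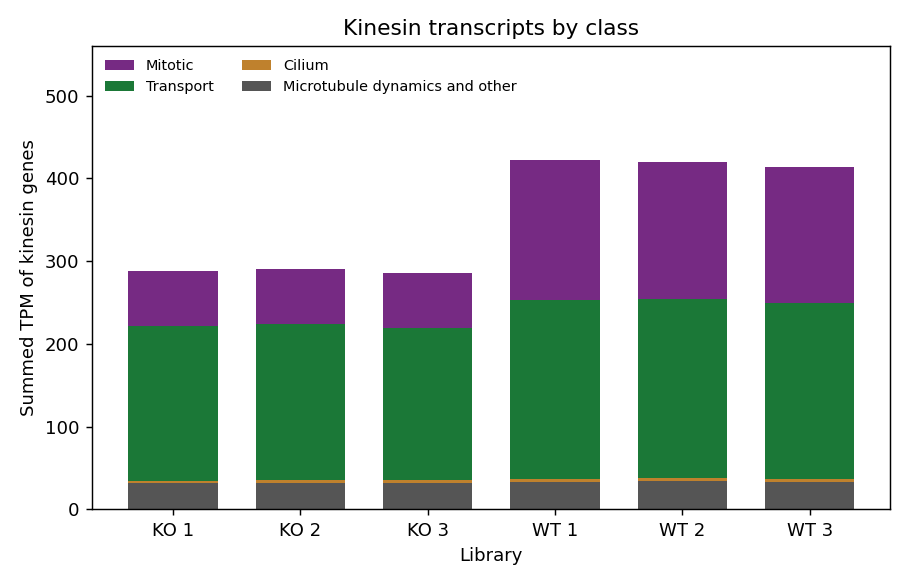
Summed TPM of all kinesin genes in each KO library (left) and WT library (right), stacked by class. The mitotic part is 66.4 to 66.7 TPM in KO and 164.8 to 169.5 TPM in WT, and the transport part is 183.7 to 188.2 TPM in KO and 212.1 to 216.0 TPM in WT.

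Conventional kinesin, the motor of the Kif5 genes, had members that moved in opposite directions. Kif5b (gene 16573, chr18:6201005-6241524), the form present in most cell types, carries lysosomes and mitochondria. It had 161.5, 161.5 and 157.6 CPM in KO libraries, against 225.2, 219.8 and 207.5 CPM in WT libraries. All 3 KO libraries were below all 3 WT libraries, by 1.36-fold on average (log2 fold change -0.44, SE 0.0274, adjusted p = 1.39e-16, edgeR), the largest fall of the transport class. Kif5a (gene 16572, chr10:127225695-127266348), known best from neurons, had 2.64, 2.66 and 2.60 CPM in KO, against 1.47, 1.28 and 1.37 CPM in WT, and rose 1.91-fold without overlap (adjusted p = 2.67e-05, edgeR). Per transcript length it remained scarce, at 0.607 ± 0.0306 TPM in KO and 0.343 ± 0.0153 TPM in WT (SD, n = 3 each), and its neighbour Dctn2 overlaps it over 87 bases. Summed neuronal and Schwann cell markers, of which Uchl1 gave most, were at 75.2 to 84.9 CPM in KO and 129.8 to 140.5 CPM in WT.

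Kif5c, the third gene of this family, had 3.45, 3.53 and 3.67 CPM in KO and 2.45, 3.29 and 2.73 CPM in WT, 0.33 higher in KO on the log2 scale (SE 0.148, adjusted p = 0.0479, edgeR). That call was lost when any one library other than WT replicate 2 was left out (adjusted p = 0.0662 to 0.203, edgeR). No tested light chain, the subunits that join Kif5 motors to cargo, was called lower. Klc2 rose by a log2 fold change of 0.395 (adjusted p = 2.03e-06, edgeR) and Klc4 by 0.40 (adjusted p = 2.82e-13, edgeR), while Klc1 had a log2 fold change of 0.06 (adjusted p = 0.216, edgeR) and Klc3 was too low to test.

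The heterotrimeric kinesin-2 motors pair Kif3a with Kif3b or Kif3c and move vesicles and the cargo of cilia. Kif3c had 40.7, 43.8 and 42.9 CPM in KO libraries, against 29.98, 29.9 and 31.6 CPM in WT libraries. It rose in every KO library (log2 fold change 0.48, SE 0.0461, adjusted p = 2.06e-11, edgeR). Its shared partner Kif3a had 31.8, 30.2 and 27.5 CPM in KO and 29.8, 29.7 and 27.9 CPM in WT, with overlapping groups and a 95% interval of -0.07 to 0.14 for the log2 fold change. Kif3b had 96.8, 94.1 and 95.98 CPM in KO and 89.9, 91.3 and 89.5 CPM in WT. It was called higher by 0.08 on the log2 scale (adjusted p = 0.0157, edgeR), but its value on the log2(TPM + 1) scale was -0.0533 (adjusted p = 0.157, limma), so its direction depends on the scaling. Kifap3, the subunit that links these motors to cargo, had a log2 fold change of -0.12 (adjusted p = 0.0413, edgeR).

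The kinesin-3 motors carry synaptic and dense core vesicles in neurons and endosomes and lysosomes in other cells. Kif1c, which moves vesicles and supports podosomes in human macrophages, had 234.3, 230.0 and 226.5 CPM in KO and 236.9, 242.7 and 243.6 CPM in WT. The groups did not overlap, but the log2 fold change was only -0.07 (adjusted p = 0.0132, edgeR), and the call was lost without KO replicate 3, WT replicate 2 or WT replicate 3 (adjusted p = 0.0507 to 0.0882, edgeR). Kif16b, a motor of early endosomes, had 46.1, 48.2 and 48.1 CPM in KO and 55.1, 51.2 and 54.2 CPM in WT (log2 fold change -0.17, SE 0.0404, adjusted p = 3.1e-04, edgeR). Kif13b had 59.2, 58.95 and 61.5 CPM in KO and 70.6, 61.7 and 66.6 CPM in WT, a fall of 0.15 on the log2 scale (adjusted p = 0.00193, edgeR). In both genes each KO library was below each WT library, though for Kif13b by a narrow margin.

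Kif1b, Kif13a and Kif1a had no call. For Kif1b, at 83.1 ± 2.84 CPM in KO and 82.5 ± 2.14 CPM in WT (SD, n = 3 each), the 95% interval of the log2 fold change ran from -0.06 to 0.08. For Kif13a it ran from -0.03 to 0.21. Kif1a, a neuronal motor, was at 1.70 ± 0.0304 CPM in KO and 1.99 ± 0.142 CPM in WT (SD, n = 3 each), and although its groups did not overlap, it did not pass (adjusted p = 0.284, edgeR), and its interval was wide, from -0.61 to 0.15. Kif1bp, which binds and blocks several kinesins of the mitotic and kinesin-3 groups, had a log2 fold change of 0.01 (adjusted p = 0.917, edgeR).

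Kifc3 is a minus-end motor of the Golgi and of cell junctions. It had 32.8, 33.5 and 33.7 CPM in KO libraries, against 23.8, 26.2 and 25.4 CPM in WT libraries, and rose in every KO library (log2 fold change 0.41, SE 0.0502, adjusted p = 6.58e-09, edgeR). The transport kinesins that were too low to test were Kif17, with 4, 2 and 2 counts in KO and 1, 0 and 0 counts in WT, and Kifc2, with 6, 8 and 5 counts in KO and 2, 2 and 4 counts in WT. Both lie near or under the floor of 3 counts per library in WT, so no fold is given.

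**Figure D5:**
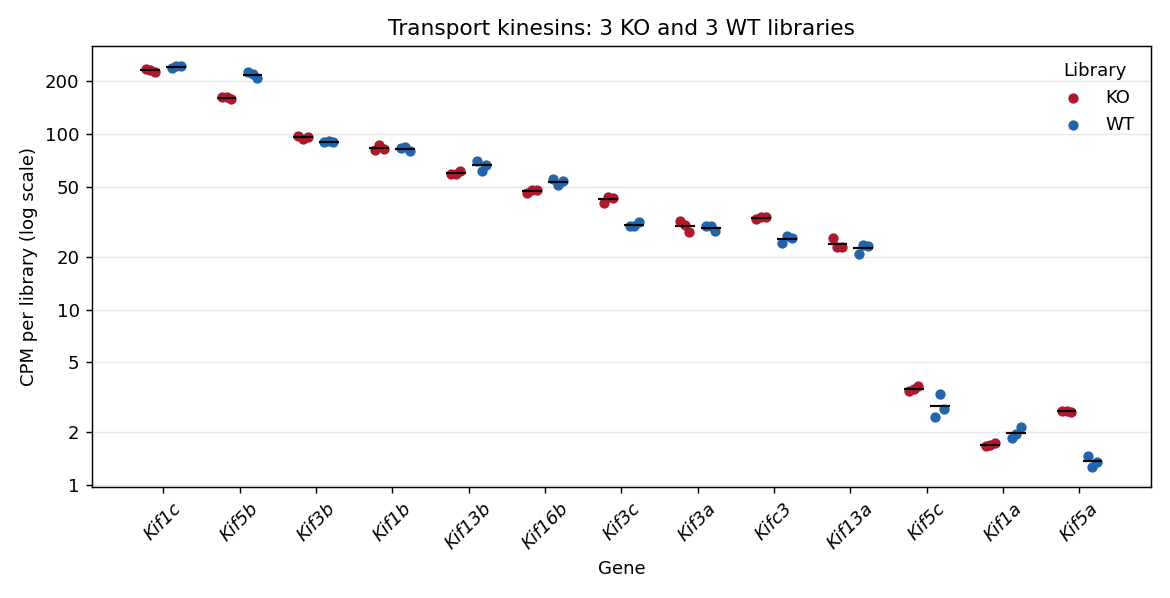
CPM of the 13 tested transport kinesins in each library, on a log scale, with KO libraries in red left of WT libraries in blue and a bar at each group's mean of 3 libraries. Kif5b at 160.2 CPM in KO and 217.5 CPM in WT is separated downwards, Kif3c, Kifc3 and Kif5a are separated upwards, and Kif1b, Kif3a and Kif13a overlap.

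Of 27 tested cargo adaptors and light chains, 6 fell (22.2%, beside 34.9% of all genes), 13 rose (48.1%, beside 34.4% of all genes) and 8 did not pass, with a median log2 fold change of 0.06. Arl8b, the small GTPase that recruits Kif5b and Kif1 motors to lysosomes, averaged 256.9 ± 1.80 CPM in KO and 377.5 ± 1.64 CPM in WT (SD, n = 3 each). Its change of -0.555 on the log2 scale (SE 0.0214, adjusted p = 8.95e-23, edgeR) was the largest fall of the list, and its 95% interval (-0.60 to -0.51) lay below that of Kif5b (-0.50 to -0.39). Madd, an adaptor of Kif1 motors in neurons, rose by a log2 fold change of 0.35 (adjusted p = 6.88e-11, edgeR).

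Of 29 tested genes of dynein, the opposing motor, its partner dynactin and their adaptors, 11 fell (37.9%), 10 rose (34.5%) and 8 did not pass, with a median of -0.01. These shares are near those over all genes, 34.9% lower and 34.4% higher. Dync1h1, the heavy chain of cytoplasmic dynein, had a log2 fold change of -0.08 (adjusted p = 0.00138, edgeR). The largest fall in this list was that of Spdl1, the adaptor of dynein at kinetochores and thus a mitotic gene, with 15.7 ± 1.65 CPM in KO and 31.3 ± 0.987 CPM in WT (SD, n = 3 each) and a log2 fold change of -0.99 (adjusted p = 1.17e-16, edgeR). Bicd2, a cargo adaptor, fell by 0.37 and Dynlt1b, a light chain, rose by 0.46 on the log2 scale (adjusted p = 3.19e-12 and 5.91e-14, edgeR). Among 15 tested tubulins, the track proteins, 5 fell (33.3%, near the 34.9% of all genes), 3 rose (beside 34.4%) and 7 did not pass, with a median of 0.015. Their log2 fold changes ran from -0.635 to 2.232, and 1 was called at least 2-fold higher (beside 3.26% of all genes).

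The kinesins of the cilium, the sensory or motile protrusion that most cells of the blood lineage lack, were all scarce, with means of at most 1.997 TPM in either group. Kif24, known in human cells to restrain cilium formation at the centriole, had 6.34, 6.95 and 6.32 CPM in KO and 7.95, 8.01 and 8.29 CPM in WT, and fell without overlap (log2 fold change -0.31, SE 0.0962, adjusted p = 0.00529, edgeR). Kif9, a motor of motile cilia, had 1.42, 1.69 and 1.07 CPM in KO and 2.26, 2.26 and 2.19 CPM in WT, a fall of 0.68 on the log2 scale (adjusted p = 0.00257, edgeR). Kif7, a regulator of Hedgehog signalling, had 1.57, 1.33 and 1.89 CPM in KO and 0.981, 0.835 and 0.9752 CPM in WT and rose (log2 fold change 0.77, SE 0.233, adjusted p = 0.00371, edgeR). With DESeq2, neither Kif24 (adjusted p = 0.0684) nor Kif7 (adjusted p = 0.0558) passed. These levels stand beside ciliated epithelium markers that summed to 2.44 to 3.63 CPM in KO and 2.80 to 3.07 CPM in WT, with no call among the 3 tested.

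Kif19a, which shortens cilia in other cell types, had 0.964, 1.28 and 1.27 CPM in KO and 0.344, 0.934 and 1.37 CPM in WT. Its groups overlapped and it did not pass (adjusted p = 0.223, edgeR), although without WT replicate 3 it did (log2 fold change 0.87, adjusted p = 0.0252, edgeR). It reached the cutoff of the filter on low counts in every KO library but not in every WT library. Kif6 and Kif27 had at most 3 counts in any library.

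Among the remaining kinesins, Kif21b and Kif21a, close relatives that pause or slow microtubule growth, went in opposite directions. Kif21b (gene 16565, chr1:136131390-136178001), known from immune cells and neurons, had 75.3, 79.8 and 79.4 CPM in KO libraries, against 54.1, 51.9 and 53.4 CPM in WT libraries. It rose 1.47-fold with groups far apart (log2 fold change 0.56, SE 0.0366, adjusted p = 6.93e-16, edgeR). Kif21a (gene 16564, chr15:90933275-91050382) had 2, 10 and 5 counts in KO libraries, against 39, 37 and 46 counts in WT libraries. That was the largest fall of any kinesin, 6.78-fold (log2 fold change -2.76, SE 0.313, adjusted p = 9.85e-10, edgeR), at a level of at most 2.24 CPM in any library. The size of this fall is uncertain, since with 1 library left out the log2 fold change ranged from -3.44 (without KO replicate 2) to -2.36 (without KO replicate 1).

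Kif26b, a kinesin without ATPase activity known from kidney and mesenchyme, had 6, 3 and 6 counts in KO and 13, 20 and 12 counts in WT (log2 fold change -1.51, SE 0.392, adjusted p = 9.69e-04, edgeR), a call that was lost on the log2(FPKM + 1) scale (adjusted p = 0.0899, limma). Kif21a and Kif26b both passed the filter on low counts through the WT libraries only, so they were tested because their WT level was high enough, and their folds carry the error of few counts. Both fell together with the fibroblast markers, of which Bgn averaged 2.61 ± 0.0587 CPM in KO and 28.1 ± 0.939 CPM in WT and Dcn 1.36 ± 0.259 CPM in KO and 13.2 ± 0.999 CPM in WT (SD, n = 3 each). The part of fibroblast RNA in these falls was not tested. Kif2a, which takes microtubules apart in resting and dividing cells, moved little, with 50.8, 49.8 and 50.3 CPM in KO and 53.7, 56.7 and 52.6 CPM in WT (log2 fold change -0.11, adjusted p = 0.0131, edgeR). That call was lost without WT replicate 2 (adjusted p = 0.112, edgeR), and Kif2a overlaps Dimt1 over 2330 bases. Kif26a had at most 3 counts in any library.

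Over all 38 kinesin genes, 33 were tested, and 30 of these passed the filter in both groups, including every mitotic kinesin and all 13 tested transport kinesins. Of the 33, 21 fell (63.6%, beside 34.9% of all genes tested), 7 rose (21.2%, beside 34.4%) and 5 did not pass. Outside the mitotic class, 9 of 21 tested kinesins fell (42.9%, beside 34.9% of all genes) and 7 rose (33.3%, beside 34.4%). The median of these 21 was 0.01 on the log2 scale. Both counts of falls include Kif21a and Kif26b, which passed the filter through WT libraries only. The 42.9% is therefore no measure of an excess over all genes. The authors deposited a second, shorter table of 6784 genes for a heat map, whose selection rule the sources used here do not state. It comes from the same libraries, so membership is no separate evidence of a difference. All 12 mitotic kinesins are in it, as are 6 of the 15 transport kinesins (Kif13b, Kif16b, Kif3c, Kif5a, Kif5b and Kifc3), 3 of the 5 remaining and no kinesin of the cilium, against 42.87% of all genes.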

How the data were processed

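RNA from sorted alveolar macrophages was sequenced after polyA selection in 3 KO and 3 WT libraries, per the labels' protocols. The submitters' processing notes name HISAT, Bowtie2 and build GRCm38.p6, with no role or order, and no source used here gives the counter, annotation or strand use. The authors deposited expected counts per gene, which are not whole for 8.66% to 9.19% of genes and were rounded to whole numbers here. They also deposited FPKM and TPM values, per the file headers, and a normalised count signal that was not used. A second deposited table holds log2(FPKM + 1) values of 6784 genes and served only for membership.

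KO was compared with WT with edgeR 4.0.16 by its quasi-likelihood test, with a design of group only, TMM factors and the filterByExpr filter, in R 4.3.3, over all 6 libraries and 11817 genes, after the filter had removed 4007. P-values were adjusted by Benjamini-Hochberg over all genes tested, with a threshold of 0.05. The filter asks for about 0.499 CPM in 3 libraries. CPM was computed with library sizes multiplied by the TMM factors, and 3 counts correspond to 0.146 to 0.153 CPM. Intervals and floors cover counting error and the spread between these libraries only. The common biological coefficient of variation was 1.66%. Libraries of the same group differed beyond counting noise in every pair, and each was counted as 1 sample.

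The members, classes and gene lists were chosen with earlier results of these data known. All kinesins of the symbol rule could be named, with the 3 genes of smallest p from each other list and a set of direct partners and reference genes. The text marks genes outside this rule as chosen afterwards, and the marker genes Siglecf, Bgn, Dcn and Uchl1 are given as context. Simulated counts with known changes were used to check the test. Alternatives were other library scaling, other filters, DESeq2 1.42.0, the replicate number as a block, fits without each library in turn, limma 3.58.1 on counts, log2(FPKM + 1), log2(FPKM + 0.1) and log2(TPM + 1), other thresholds, an assumed coefficient of variation of 0.1, and a fit without X and Y genes. The count of mitotic kinesins was also taken with Cenpe and Kif2a added to the class. Promoter windows are RefSeq sequences of GRCm38.p6 and were searched with Python 3.11.15. Tables were made with pandas 2.3.3 and plots with matplotlib 3.10.9.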

Additional observations from a re-analysis of the deposited data

How the results depend on the processing

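Each of the 12 mitotic kinesins stayed lower and past the threshold in every alternative in which it was fitted, 239 values in all, with log2 fold changes of -1.64 to -0.51. Leaving out each library gave 12 mitotic kinesins lower each time, 19 to 21 kinesins lower, 6 to 7 higher, 3 to 4 transport kinesins lower, 4 to 5 higher, and 7755 to 7935 genes changed, against 8179 with all libraries. Of the 33 tested kinesins, 20 kept direction and side of the threshold throughout.

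The small changes of transport kinesins depended on settings. The count of transport kinesins higher, 5 in the reported fit, was 3 with total counts only, with DESeq2, on log2(FPKM + 1), log2(FPKM + 0.1) and log2(TPM + 1), at a threshold of 0.01 and with an assumed coefficient of variation of 0.1. With that assumed value, 1 transport kinesin was lower, against 4, and 4406 genes changed. DESeq2 called 4 kinesins higher, against 7. Signs turned for genes near 0. Kif1b, at 0.01 in the reported fit and at -0.0153 to 0.0319 with 1 library left out, came to -0.0153 without KO replicate 2, -0.0079 without WT replicate 3, -0.0464 with total counts only, -0.0653 on log2(FPKM + 1), -0.0716 on log2(FPKM + 0.1) and -0.143 on log2(TPM + 1) (adjusted p = 0.0161, limma, the 1 such value past the threshold). Kif3a, at 0.03 in the reported fit and at -0.0123 to 0.0916 with 1 library left out, came to -0.0123 without KO replicate 1, -0.0229 with total counts only, -0.0214 on log2(FPKM + 1), -0.025 on log2(FPKM + 0.1) and -0.0951 on log2(TPM + 1). On log2(TPM + 1), Kif3b was at -0.0533 and Kif13a at -0.0523. The cause was not tested.

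Scaling moved the balance of all genes. On log2(TPM + 1), 5781 genes were lower and 2463 higher, against 4119 lower and 4060 higher, and the median of transport kinesins was -0.09 and of mitotic kinesins -1.06. The share of calls that were higher was 29.9% there, 41.3% with total counts only and 40.8% on both FPKM scales, against 49.6%. The number of mitotic kinesins at least 2-fold lower was 9 in the reported fit and 5 on log2(FPKM + 1), where the pseudocount shrinks low genes, and genes changed at least 2-fold numbered 969 in the reported fit, 335 on log2(FPKM + 1) and 406 on log2(TPM + 1).

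With the replicate number as a replicate block, 8321 genes changed and no kinesin call changed. Deviations of libraries with the same number correlated at 0.106, 0.058 and 0.081 over genes, each library best with its own number, which is a hint from the data and not the design. The 5 kinesins that the filter on low counts removed did not pass without the filter either (smallest adjusted p = 0.0575 for Kif17 and 0.0708 for Kifc2, edgeR), at counts too few to show a moderate difference. Kif21a moved to -0.34 on log2(FPKM + 1) and -0.47 on log2(TPM + 1), where the pseudocount shrinks low genes, and kept its call.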
